A study of Homo sapiens with 6 samples.

Results

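A set of 6 stretches at or next to human centromeres held ATAC-seq peaks far more densely than the rest of the genome in 6 libraries, and they are described here. On the GRCh38 build they cover 122 to 125 Mb of chromosome 1, 47 to 50 Mb of chromosome 5, 58 to 60 Mb of chromosome 7, 35 to 37 Mb of chromosome 12, 25 to 27 Mb of chromosome 19 and 11 to 13 Mb of chromosome 22, 14 Mb in all. Every peak whose midpoint lay in these windows was taken, and peaks of different lists that shared at least 1 bp were merged into a region. This gave 2296 window regions of 75701 regions in all, or 3.03%, from 8430 of the 271385 nuclear peaks of the 6 lists.

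ATAC-seq marks open DNA through the cuts of the Tn5 transposase. The libraries came from ARP1, an established human multiple myeloma cell line, with 3 libraries of KDM6A knockout cells and 3 of wild-type cells, and the title of the series names the immunogenicity of myeloma as its subject. KDM6A removes methyl groups from histone H3 at a site that marks silenced chromatin. The labels call the libraries of a genotype numbered biological replicates and name no culture or clone for them, so p-values cover the spread between these libraries alone, which may be partly technical.

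Human centromeres are built on long arrays of a short tandem repeat, the alpha satellite, and the DNA beside them holds further satellites, segmental duplications and pseudogenes. This DNA is usually packed as constitutive heterochromatin, which is closed and mostly silent. Its many near-identical copies make short reads hard to assign to a single place. Mapping quality, repeat annotation and genome sequence of the windows were not used here, so the part of multiply placed reads in the peaks was not tested.

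The annotation of the windows was sparse. RefSeq (GRCh38.p14) placed no gene of any kind in the windows of chromosomes 1, 5, 7, 12 and 19. The chromosome 22 window held 30 genes, of which 25 were pseudogenes and 5 were long non-coding RNAs, and none was protein-coding. The 5 windows without genes each lay in the longest stretch of their chromosome that holds no protein-coding gene, 22.4 Mb on chromosome 1 and 4.29 to 6.28 Mb on the others. The nearest records that the table lists as protein-coding were LINC02798, whose symbol is that of a long non-coding RNA and which bounds the chromosome 1 stretch, and H3-7, a histone H3 gene, beside the chromosome 1 window, EMB, a cell adhesion protein, above that of chromosome 5, and ZNF716 and LOC124901649 beside that of chromosome 7. They were ALG10 and ALG10B, glucosyltransferases of protein glycosylation, beside the chromosome 12 window, ZNF254, a zinc finger gene, and UQCRFS1, a subunit of respiratory complex III, beside that of chromosome 19, and OR11H1, an olfactory receptor, above that of chromosome 22.

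RefSeq promoter sequences existed for 2 of the window genes, both long non-coding RNAs of chromosome 22, and they show what lies under window peaks at the level of bases. Each runs from 250 bases before to 50 after the gene start, 5′ to 3′ along the gene, and capitals mark the bases under a peak in all 6 lists. LOC107987323 lies at chr22:12097687-12097986 on the plus strand and LOC105379428 at chr22:12815744-12816043 on the minus strand.
LOC107987323: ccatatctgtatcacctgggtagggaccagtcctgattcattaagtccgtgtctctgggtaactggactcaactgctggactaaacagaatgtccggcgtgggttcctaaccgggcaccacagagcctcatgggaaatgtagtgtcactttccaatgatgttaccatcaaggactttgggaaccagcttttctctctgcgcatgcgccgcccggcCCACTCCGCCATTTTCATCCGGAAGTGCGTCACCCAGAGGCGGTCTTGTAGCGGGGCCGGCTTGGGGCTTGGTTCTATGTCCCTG
LOC105379428: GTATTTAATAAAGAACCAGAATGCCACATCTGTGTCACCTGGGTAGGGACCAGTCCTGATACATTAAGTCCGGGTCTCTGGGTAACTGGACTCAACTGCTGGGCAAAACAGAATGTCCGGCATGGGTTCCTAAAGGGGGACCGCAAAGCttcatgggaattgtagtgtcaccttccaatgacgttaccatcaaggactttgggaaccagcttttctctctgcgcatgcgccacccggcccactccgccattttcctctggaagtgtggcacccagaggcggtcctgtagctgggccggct

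The LOC107987323 promoter had a GC content of 55.3% and 14 CpG pairs, and the LOC105379428 promoter 53.7% and 10, beside medians of 58.7% and 14 over the 35116 promoters of the table. The shared peak covered 85 bases of the first, up to its end past the gene start, and 149 bases of the second, all upstream. Both promoters are copies of each other: 254 of 277 aligned bases, or 91.7%, were identical. The letters CCGGAAGT, which ETS factors bind, were searched on both strands. They occurred once in LOC107987323, inside the capitals, and not in LOC105379428, and 4.14% of all promoters held them.

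Similar sequence recurs outside the window. Each of the 2 promoters shared at least 20 of its 20-base words with 6 other promoters of the table on 5 chromosomes. The identity was 89.8% to 94.2% for LOC107987323 and 90.5% to 96.9% for LOC105379428. The 6 include the other window promoter of chromosome 22, and only the remaining ones, on chromosomes 3, 4, 21 and Y, lie outside the window. Of the 6, with the other window promoter counted, 5 lay under a peak in all 6 lists and 0 in none. The same share over all promoters of the table was not computed, so no excess can be read from this count. At the promoter of ZNF717, a protein-coding zinc finger gene on chromosome 3, the folds were 19.6, 22.3 and 18.2 in the knockout libraries and 24.6, 31.1 and 26.6 in the wild-type libraries. Those at LOC107987323 were 15.0, 19.3 and 18.5 in the knockout and 26.3, 24.1 and 17.6 in wild-type libraries. Those at LOC105379428 were 3.91, 4.26 and 5.89 in the knockout and 6.41, 4.62 and 4.40 in wild-type libraries. The wild-type folds lay above the knockout folds at ZNF717, and the groups overlapped at both window promoters. Of the other copies, LOC101930100 had folds of 50.5 to 54.4 in the knockout and 60.6 to 74.1 in wild-type libraries, without overlap. The groups overlapped at LINC01666 (9.03 to 13.8 against 9.40 to 11.2) and LOC105379273 (4.59 to 6.02 against 4.40 to 6.19). At LOC101927209 the second knockout list had no peak, and the wild-type folds lay above the knockout folds called. A fold here is the authors' own value of a peak, its read pileup over the background of the same library, each with 1 added.

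The windows were chosen on their peak number, which is given as a description. The median bin of 1 Mb held a mean of 12.3 peaks over the 6 lists, and all 14 window bins were among the 48 bins with at least 60. They ranged from 60.2 in the first Mb of the chromosome 1 window to 155 in its last. Just outside, the bin above the chromosome 19 window held 48.7, that above the chromosome 7 window 44.8 and that above the chromosome 22 window 39.5. The number was lower elsewhere at the edges, with 6.67 above the chromosome 1 window, 4.5 below the chromosome 5 window and 1.33 below the chromosome 7 window.

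**Figure D1:**
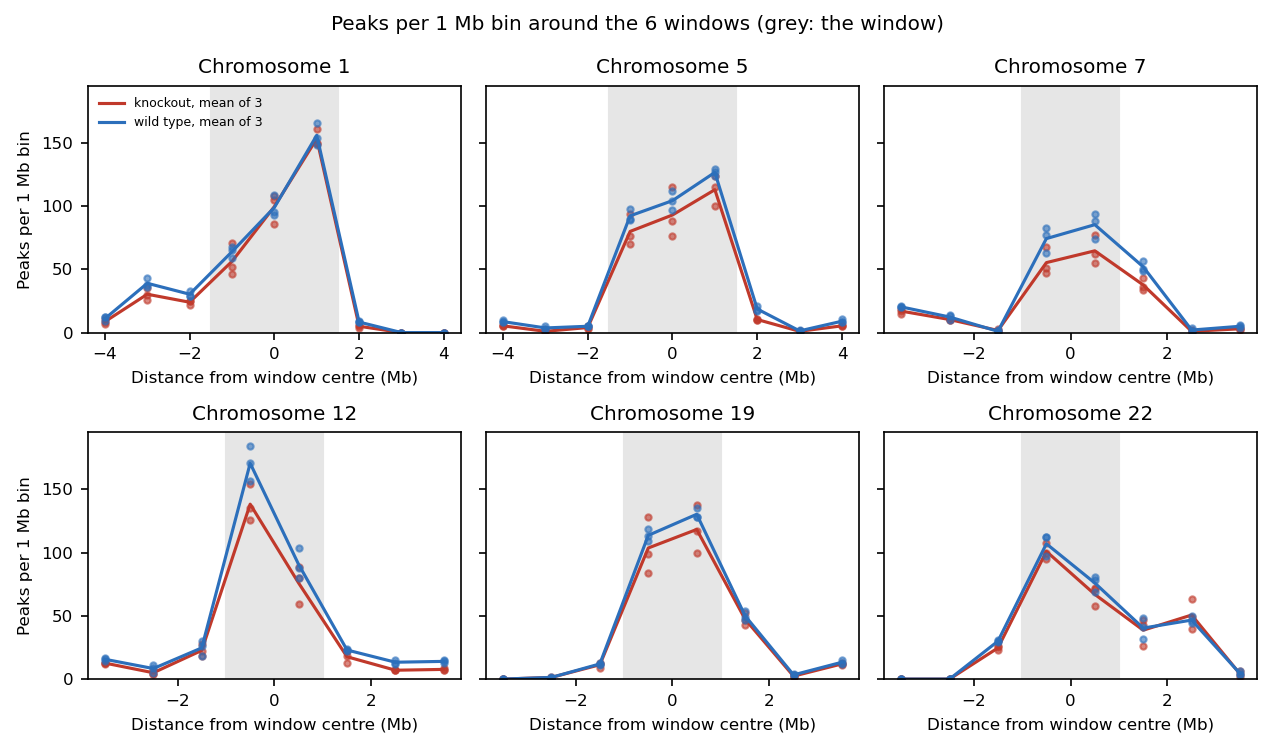
Number of peaks in bins of 1 Mb (y axis) by distance from the window's centre in Mb (x axis), with 1 panel per window shaded grey, points for single libraries and lines for the means of 3 knockout (red) and 3 wild-type (blue) libraries. The means over all 6 lists are at least 60.2 in the shaded bins, and the bins directly beside them hold at most 48.7.

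Depth differed between the genotypes. The lists held 33056 to 37315 peaks in the knockout and 54444 to 56049 in wild-type libraries, with a background pileup of 2.05 to 2.56 reads in the knockout and 3.11 to 3.77 in wild-type libraries. As a check of the cell type, 5 of 8 plasma cell genes had a peak at a gene end in all 6 lists and each of the 8 in at least 1 list, and 3 of 3 monocyte genes had none, while CD3E of T cells and COL1A1 of fibroblasts had one in all 6. The KDM6A gene-end peak was called in all 6 lists, with folds of 8.76 to 15.1, and an open start does not check the knockout.

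Window peaks numbered 1158, 1311 and 1490 in the knockout libraries and 1546, 1448 and 1477 in the wild-type libraries. The genotypes overlapped, since the third knockout library lay inside the wild-type range. The knockout mean was 88.5% of the wild-type mean in the windows and 64.5% over the whole lists. Window peaks therefore made up a larger share of each knockout list, 3.50%, 3.51% and 4.13%, than of each wild-type list, 2.84%, 2.66% and 2.64%. The groups did not overlap: the means were 3.72% ± 0.36 (SD, n = 3) and 2.71% ± 0.11 (SD, n = 3), a difference of 1.01 percentage points with p = 0.1 in a two-sided exact permutation test, the smallest p that 3 against 3 libraries allow. The Wilson intervals of single libraries, at the 95% level and for counting error only, reached from 3.31% to 4.34% in the knockout and from 2.51% to 2.98% in wild-type libraries. Window peaks covered 1.13, 1.17 and 1.85 Mb in the knockout and 1.87, 1.57 and 1.66 Mb in wild-type libraries, again with overlap.

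The windows differed among themselves. The chromosome 1 window held 288, 300 and 340 peaks in the knockout and 343, 308 and 306 in wild-type libraries, so the knockout mean was 97.0% of the wild-type mean. The chromosome 7 window held 102, 113 and 145 peaks in the knockout and 165, 137 and 177 in wild-type libraries, or 75.2%. Both windows had overlapping genotypes, and chromosome 7 had the fewest peaks per library of the windows. The chromosome 12 window held 185, 215 and 243 against 288, 251 and 245 peaks, with every knockout library below every wild-type library. The other windows stood between those of chromosomes 7 and 1, at 82.0% for chromosome 12, 88.5% for chromosome 5, 91.0% for chromosome 19 and 91.8% for chromosome 22.

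Spacing followed from the density. The median gap between neighbouring window peaks was 4006 to 5651 bp per library, against 22502 to 34829 bp in the rest of the genome. Gaps under 1 kb made up 15.7% to 20.4% of gaps in the windows and 5.61% to 6.67% in the rest. The chromosome 22 window had the closest peaks, with medians of 1657 to 2675 bp, and the chromosome 7 window the widest spacing, with 6689 to 11801 bp. Peaks covered 10.2% to 18.7% of the chromosome 12 window and 4.10% to 9.53% of the chromosome 7 window. Peak-dense segments of the arms of chromosome 2 (9 to 14 Mb), chromosome 4 (153 to 171 Mb) and chromosome 11 (88 to 94 Mb) were taken for comparison. These segments, which also count in the rest of the genome, had median gaps of 3024 to 4364 bp. Peak-dense bins without a protein-coding gene on chromosomes 8 and 10, given at the end, were not among them.

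Window peaks were lower than other peaks of the same library, a measure that the choice of windows did not use. The median fold in the windows was 5.72, 5.90 and 5.61 in the knockout and 4.91, 5.10 and 4.82 in wild-type libraries. In the rest of the genome it was 7.22, 7.21 and 6.45 in the knockout and 6.19, 7.05 and 6.29 in wild-type libraries. The windows were lower in 6 of 6 libraries, with a mean difference of -1.39 (SD 0.36) and p = 0.03125 in a two-sided exact permutation of the signs, the smallest p that 6 libraries allow, and an adjusted p of 0.0375 over the 6 such comparisons made. When the rest was limited to peaks more than 1 kb from protein-coding gene ends, the mean difference shrank to -0.43, with p = 0.0625 in the exact permutation test. Peaks with a fold above 20 made up 3.05% to 4.58% of window peaks and 5.51% to 10.5% of the rest, again lower in 6 of 6 libraries with the same exact p.

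Against the dense arm segments the windows stood higher. The arm median fold was 4.82, 4.59 and 4.49 in the knockout and 4.06, 4.13 and 3.77 in wild-type libraries, below the windows in 6 of 6 libraries by a mean of 1.04 (SD 0.17, exact permutation p = 0.03125, adjusted 0.0375). With every list cut to the length of the shortest, keeping its strongest peaks, that difference turned to -0.56 with an exact permutation p of 0.47, and the difference in width from the arm segments fell to 76.3 bp with 0.1875. Against the chromosome 4 segment alone it was 0.71, with an exact permutation p of 0.0625.

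The difference in median width between the windows and the rest moved with the peaks kept. The median width of window peaks was 631.5, 556 and 930 bp in the knockout and 871, 739 and 778 bp in wild-type libraries, and of other peaks 709, 640 and 788 bp and 784, 733 and 789 bp. The windows were wider in 3 of 6 libraries, by a mean of 10.4 bp (SD 89.8, exact permutation p = 0.8125), and without the third knockout library the mean turned to -15.9 bp. With a −log10 q of at least 5, a fold of at least 4 or equal list length the mean difference was 178, 181 or 189 bp, with exact permutation p of 0.094, 0.125 and 0.125. Against peaks away from protein-coding gene ends the windows were wider by 127 bp (exact permutation p = 0.03125). The upper tail differed: peaks over 3 kb made up 2.82% to 6.27% of window peaks and 0.98% to 2.22% of the rest, a mean excess of 2.99 percentage points in 6 of 6 libraries (exact permutation p = 0.03125, adjusted 0.0375). Window peaks were also wider than arm peaks, by a mean of 126 bp in 6 of 6 libraries with the same exact p, and by 42.2 bp with an exact permutation p of 0.1875 against the chromosome 2 segment alone.

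**Figure D2:**
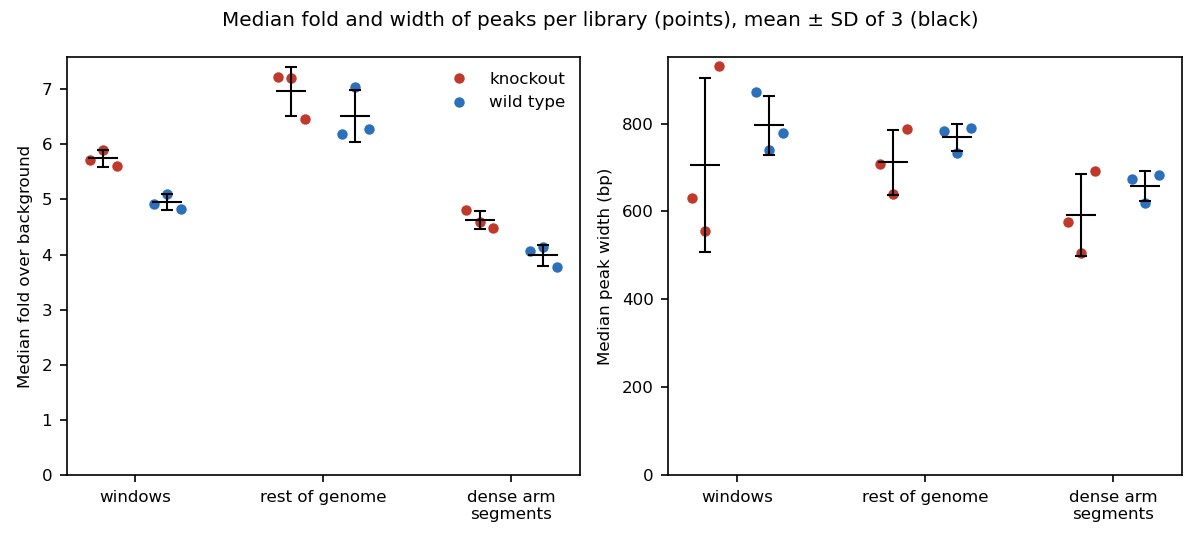
Median fold over background (left) and median peak width in bp (right) in the windows, the rest of the genome and the dense arm segments, with 1 point per library (red knockout, blue wild type) and the mean ± SD of 3 libraries in black. The window folds of 4.82 to 5.90 lie below those of the rest and above those of the arm segments in each library, while window widths of 556 to 930 bp span those of the rest.

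By window, the median fold was 5.66 to 6.56 per library on chromosome 1, 5.87 to 6.92 on chromosome 5 and 5.66 to 6.62 on chromosome 19. It was 4.40 to 5.57 on chromosome 22, 3.98 to 4.82 on chromosome 7 and 3.84 to 4.59 on chromosome 12. The chromosome 7 and 12 windows had the lowest values, with ranges that overlapped each other and that of chromosome 22 but not those of chromosomes 1, 5 and 19. All folds of window peaks fell on multiples of 1 step per library, within 0.01 of that step. Peaks of equal pileup in a list had equal p-values. The windows were therefore scored against the same genome-wide background as the rest, and no local background entered these folds.

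The 6 lists agreed less often on the pooled window regions than on others, and single windows differed. Of the 2296 window regions 564 were called in all 6 lists, or 24.6%, where the share over all regions was 31.2%. The Wilson 95% interval of 22.8% to 26.4% takes regions as independent. It covers counting error only, not the spread between libraries. Another 751, or 32.7%, were called in a single list, beside 29.2% in the rest of the genome. In the pooled dense arm segments 11.9% were called in all 6 lists and 49.0% in a single list. The segments differed: the chromosome 2 segment had 20.6% and 33.0%, close to the windows. That of chromosome 4 had 8.58% and 54.2%, and that of chromosome 11 7.49% and 60.8%. Agreement was highest on chromosomes 22, 1 and 5, with 75 of 250, 143 of 481 and 137 of 471 regions in all 6 lists, and lower on chromosome 19 at 25.9%, chromosome 12 at 17.4% and chromosome 7 at 13.0%. In all, 419 window regions, or 18.2%, merged several peaks of the same list, against 5.05% in the rest, 24.3% in the chromosome 2 segment, 4.31% in that of chromosome 4 and 3.81% in that of chromosome 11. When a list had to cover 50% of a region to count, 9.23% of window regions and 17.6% of the rest were in all 6 lists. The median window region was 956 bp wide, the median region of the rest 793 bp.

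Fewer window peaks than others had a summit of another list nearby, and the matched summits lay closer. Over the ordered pairs of lists a mean of 64.1% of window peaks had a summit of the other list within 1000 bp and 43.3% within 100 bp, against 74.6% and 46.4% in the rest. Over the 30 ordered pairs of lists, a window peak with a summit of the other list within 1000 bp had it at a median distance of 41.7 bp (36.5 to 48 over pairs), against 71.2 bp (62 to 82) in the rest. The window value was smaller in 30 of 30 pairs, which share libraries and are given as a description. It covers only the smaller share of window peaks with such a summit, and peak density was not taken into account. Window peaks overlapped a peak of another list in a mean of 66.5% of cases between knockout lists and 72.3% between wild-type lists, where the rest had 79.3% and 81.0%. Of the knockout window peaks 73.8% overlapped a peak of a wild-type list, against 89.5% in the rest. In the other direction the order turned, and 63.4% of wild-type window peaks overlapped a peak of a knockout list, against 55.7% in the rest.

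**Figure D3:**
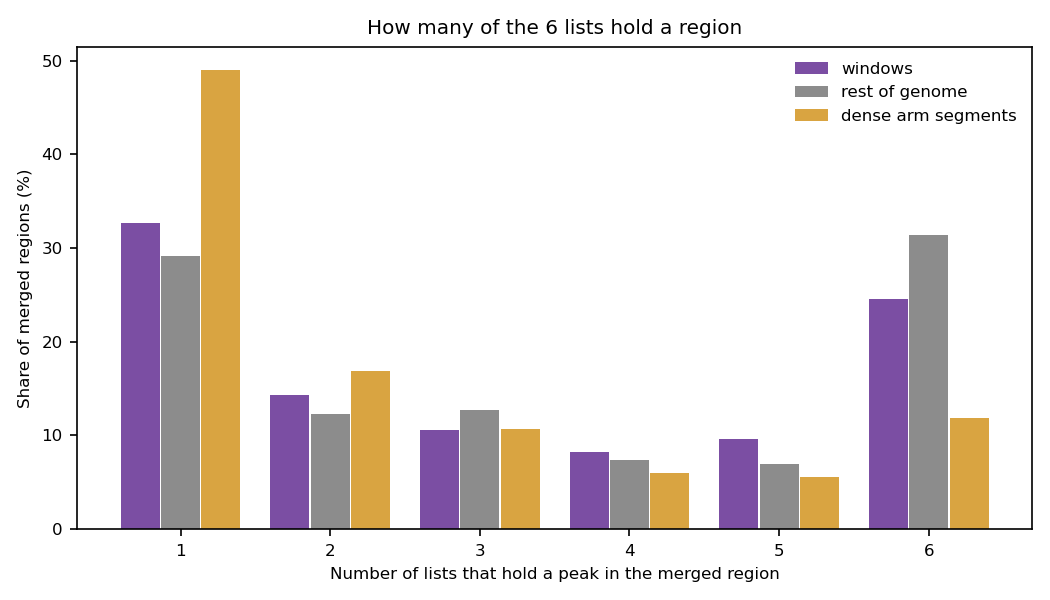
Share of merged regions in percent (y axis) by the number of lists that hold a peak there (x axis), in the windows (purple), the rest of the genome (grey) and the dense arm segments (yellow). The windows have 24.6% of regions in all 6 lists, between the pooled arm segments at 11.9% and the rest at 31.4%. The chromosome 2 segment alone, not drawn, has 20.6%.

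Few window regions were specific to the wild type. A region is called WT-only when it is in 3 of 3 wild-type and 0 of 3 knockout lists. Of the 828 window regions that all 3 wild-type lists held, 26 or 3.14% were WT-only, where the share over the whole genome was 17.3%. The count per window was 7 of 198 on chromosome 1, 7 of 198 on chromosome 5, 0 of 69 on chromosome 7, 4 of 118 on chromosome 12, 4 of 145 on chromosome 19 and 4 of 100 on chromosome 22. The dense arm segments had 21.6%, made up of 33.1% on chromosome 4, 23.2% on chromosome 11 and 5.86% on chromosome 2. KO-only regions, defined the other way round, numbered 7 of the 650 window regions in all 3 knockout lists, or 1.08%, where the share over the whole genome was 0.39%.

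The WT-only share was higher with fewer libraries. It was 8.93% without the third knockout library, which had the most window peaks of the 3, and the share in the rest of the genome stayed within 20.2% to 22.8% over the libraries left out. It was 6.93% without the third wild-type library, 6.34% without the second and 5.41% without the first, and 4.94% without the second knockout library. With only peaks of a fold of at least 4 it was 1.11% (15.8% in the rest), at equal list length 0% (7.35%), and with presence only where peaks cover 50% of a region 5.35% (28.9%). In each case the window share was below that of the rest.

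The WT-only share was also given in bands of the mean wild-type fold, over regions in all 3 wild-type lists. Strength was thus matched in the wild type alone. Within a band, windows and rest can still differ in knockout fold, so the bands do not separate the share from that difference. Of window regions with a mean wild-type fold of 4 to 6, 15 of 298 or 5.03% were WT-only, against 42.6% in the rest. Between 6 and 10 the window count was 0 of 280, against 15.5%, and at 10 or more 0 of 189, against 0.97%. Below 4 it was 11 of 61 or 18.0%, against 53.8%. Window regions of fold 4 to 6 were present in all 3 knockout lists in 49.7% of cases, and those of the rest in 18.0%.

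The strongest WT-only region of each window, by mean fold, was weak. On chromosome 1 it was 124318090 to 124318529, with folds of 7.26, 5.10 and 5.45, and on chromosome 5 it was 49212325 to 49212882, with 3.84, 6.08 and 4.82. Those on chromosome 12 (36613845 to 36615913), chromosome 19 (25493782 to 25495243) and chromosome 22 (11441929 to 11443556) had mean folds of 3.97 ± 0.39, 5.16 ± 0.37 and 5.36 ± 1.10 (SD, n = 3 each). The strongest KO-only region was 48001403 to 48001806 on chromosome 5, with folds of 8.13, 12.5 and 8.14 in the knockout lists and no peak in the wild-type lists. The KO-only regions at the top of the other windows had mean folds of 4.35 on chromosome 1 (123591944 to 123592529), 4.20 on chromosome 12 (35533810 to 35534318), 4.45 on chromosome 19 (26524648 to 26525028) and 5.48 on chromosome 22 (12575022 to 12575545). Chromosome 7 had neither kind.

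Peak height was compared between the genotypes next. Over all window peaks the median fold, given above by library, was 5.74 ± 0.15 in the knockout and 4.95 ± 0.15 in wild-type libraries (SD, n = 3 each), 0.80 higher without overlap (two-sided exact permutation p = 0.1, the smallest possible). The lowest fold a peak could have also differed, 3.23 ± 0.12 in the knockout and 2.81 ± 0.10 in wild-type libraries. With peaks below a fold of 4 left out of all lists, the difference was 0.12 (exact permutation p = 0.3), and with a −log10 q of at least 5 it was 0.56 (exact permutation p = 0.1). At equal list length it turned to -1.80, also with p = 0.1 in the exact permutation test. The median width was 706 ± 198 bp in the knockout and 796 ± 67.8 bp in wild-type libraries, a difference of -90.2 bp inside the spread of the libraries (exact permutation p = 0.5). It was -287 bp with a fold of at least 4 (p = 0.3 in the exact permutation test) and -579 bp at equal list length, where the exact permutation p was 0.1, the smallest possible. Without the third knockout library, whose window peaks were the widest by median, it was -202 bp without overlap (exact permutation p = 0.1), and without the second -15.3 bp.

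Regions called in all 6 lists allow the same places to be set side by side. These are the 564 regions that passed in every list, not all members. Their median fold was 7.52, 7.87 and 8.14 in the knockout libraries and 7.69, 7.53 and 7.33 in wild-type libraries, with overlap. In the 23025 such regions of the rest it was 9.03, 9.83 and 8.70 in the knockout and 11.3, 13.4 and 11.7 in wild-type libraries, with every knockout library below every wild-type library. The median log2 difference, knockout minus wild type, was 0.07 in the windows, a ratio of 1.05, and -0.36 in the rest, a ratio of 0.78. The fold was higher in the knockout at 359 window regions, or 63.7%, and at 18.3% of regions in the rest.

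The windows' median set against that of the rest in the same library, on the log2 scale, was -0.23 ± 0.12 in the knockout and -0.69 ± 0.13 in wild-type libraries (SD, n = 3 each). The groups did not overlap and differed by 0.46, with p = 0.1 in a two-sided exact permutation test, the smallest possible. By window the median log2 difference of the regions was 0.12 on chromosome 1, 0.06 on chromosome 5, 0.00 on chromosome 7, 0.14 on chromosome 12, 0.07 on chromosome 19 and 0.05 on chromosome 22. The arm segments had -0.67 on chromosome 4, -0.59 on chromosome 11 and -0.05 on chromosome 2. In strata of mean fold below 5, from 5 to 8, 8 to 12, 12 to 20 and 20 or more, the windows had 0.14, 0.07, 0.07, 0.07 and 0.05, and the rest 0.06, -0.27, -0.41, -0.40 and -0.39.

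**Figure D4:**
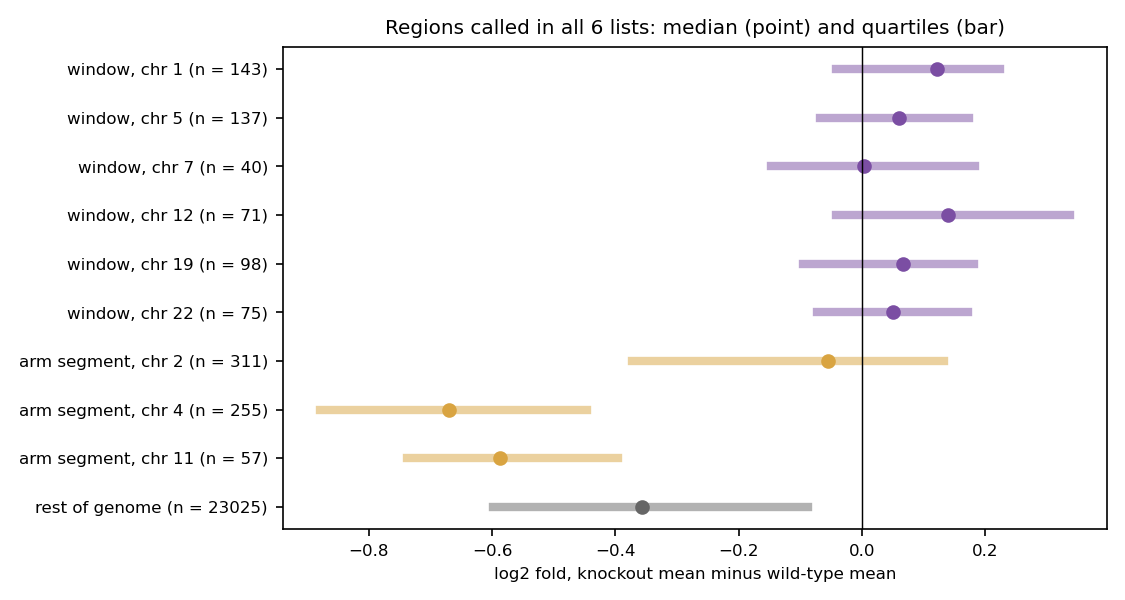
Median (point) and quartiles (bar) of the log2 fold difference, knockout mean minus wild-type mean (x axis), over regions called in all 6 lists, for each window, each dense arm segment and the rest of the genome, with the number of regions beside each name. The window medians lie between 0.00 and 0.14, and that of the rest at -0.36.

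Knockout folds all lay above wild-type folds at 58 window regions, or 10.3%, where the share over all regions in 6 lists was 2.81%. Wild-type folds all lay above knockout folds at 27, or 4.79%, where that share was 43.9%. The spread within a genotype was alike in both places, with a median SD of the log2 fold of 0.20 in the knockout and 0.18 in wild-type libraries in the windows, and 0.21 and 0.20 in the rest.

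The windows also held very high peaks. Regions with a mean fold of at least 50, a limit set after the values were seen, numbered 12 of 564, or 2.13%, against 138 of 23025, or 0.60%, in the rest. Of these, 6 lay within a short stretch of chromosome 5 between 49599406 and 49661890, 5 on chromosome 22 and 1 on chromosome 12. The highest, at 49599406 to 49603119 on chromosome 5, was 3714 bp wide, with folds of 203, 213 and 179 in the knockout and 169, 143 and 180 in wild-type libraries. The groups overlapped there, at 198 ± 17.7 and 164 ± 19.1 (SD, n = 3 each). Its neighbour at 49609864 to 49618944, the widest region of the chromosome 5 window at 9081 bp, had 104, 115 and 111 in the knockout and 102, 93.8 and 99.95 in wild-type libraries, with every knockout value above every wild-type value. The region at 49656382 to 49661890 had 136, 145 and 132 in the knockout and 112, 94.1 and 130 in wild-type libraries, also without overlap.

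On chromosome 22 the highest region, 12173497 to 12178889, had folds of 106, 97.7 and 119 in the knockout and 97.8, 106 and 82.6 in wild-type libraries, which overlap. The region at 11972034 to 11976028 went the other way, with 45.7, 54.1 and 47.1 in the knockout below 61.7, 71.0 and 63.7 in wild-type libraries. The region at 12691749 to 12692944 overlapped the end of DUX4L44, a pseudogene related to the DUX4 transcription factor, with 91.5, 94.4 and 87.3 in the knockout and 83.1, 91.6 and 78.0 in wild-type libraries. Its genotypes overlapped.

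**Figure D5:**
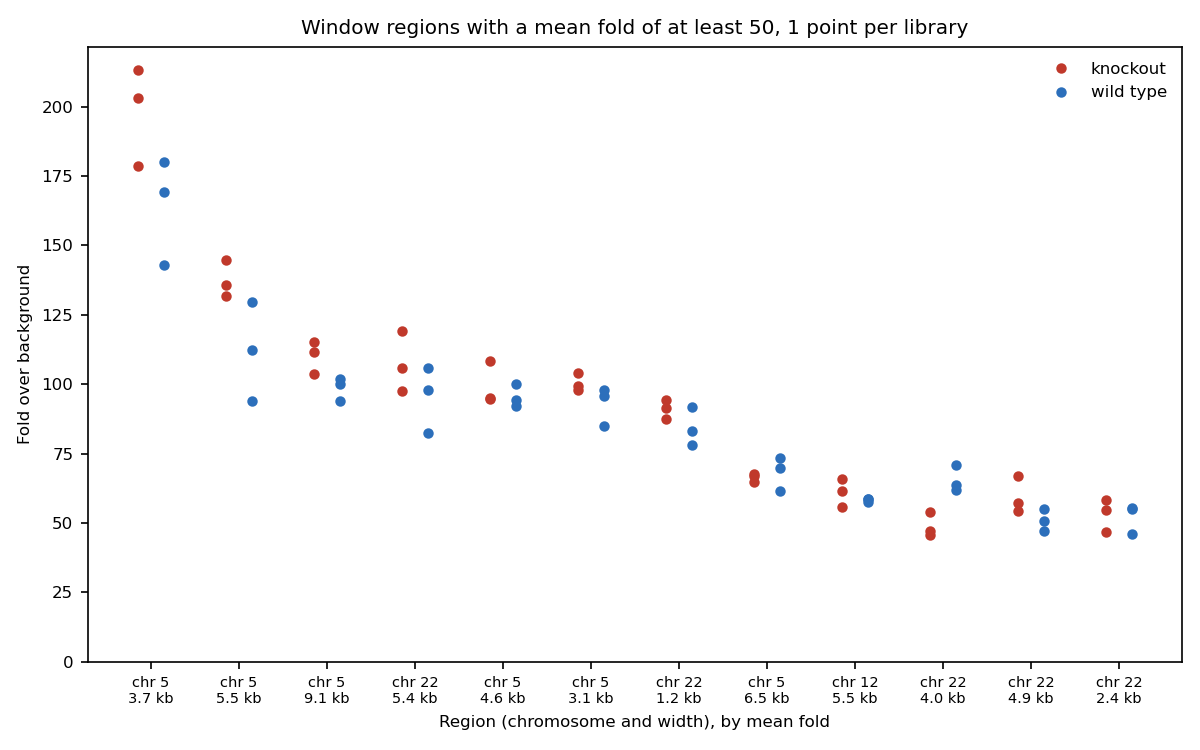
Fold (y axis, linear from 0) of the 12 window regions with a mean fold of at least 50 (x axis, chromosome and region width in kb), with 1 point per library coloured by genotype. The region of highest fold lies on chromosome 5 and ranges from 143 to 213.

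The other windows had lower maxima. The highest region of chromosome 12, at 35611144 to 35616671, had folds of 61.4, 65.9 and 55.6 in the knockout and 57.4, 58.6 and 58.7 in wild-type libraries. That of chromosome 1, at 124739265 to 124742812, had 42.1, 38.4 and 37.0 against 39.5, 35.2 and 39.8, and that of chromosome 19, at 25506535 to 25507211, had 26.5, 34.1 and 39.0 against 32.7, 33.8 and 34.2. All of these overlapped between genotypes. On chromosome 7 the highest region, 59733932 to 59736252, had 20.2, 21.96 and 20.2 in the knockout and 25.8, 23.1 and 25.1 in wild-type libraries, without overlap.

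The widest regions held 6 to 24 peaks over the 6 lists. That of chromosome 5, given above, held 6, 1 per list. The widest of all, 19242 bp at 35121103 to 35140344 on chromosome 12, joined 19 peaks of the 6 lists and had a mean fold of 17.5 ± 4.12 in the knockout and 18.2 ± 2.12 in wild-type libraries (SD, n = 3 each). On chromosome 22 the widest, 16080 bp at 11922846 to 11938925, joined 24 peaks inside the long non-coding RNA LOC102723769, with 12.7 ± 0.49 and 11.5 ± 1.25. The widest regions of chromosome 1 (124729277 to 124738266, 8990 bp), chromosome 19 (25071957 to 25078024, 6068 bp) and chromosome 7 (59363011 to 59368090, 5080 bp) had overlapping genotypes too.

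Of the 30 genes of the chromosome 22 window, 14 had a window region inside them or within 1 kb, all 5 long non-coding RNAs and 9 of the 25 pseudogenes. The same share over all genes was not computed, and the window was chosen on its peak number. No excess can be read from these counts. LOC102723769 had 16 regions, 8 of them in all 6 lists. The pseudogene LOC101928041 had 8 regions, and at the highest its folds were 8.13, 12.1 and 10.4 in the knockout and 11.5, 13.9 and 12.6 in wild-type libraries, which overlap. The highest region of LOC105379516, a long non-coding RNA, was called only in the first and second wild-type lists, with folds of 6.62 and 7.05. The promoters printed above have copies elsewhere, with an identity of 89.8% to 96.9%. How the authors' alignment placed reads among such copies is not given in the sources used here.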

How the data were processed

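ATAC-seq was measured in 6 libraries of the ARP1 line, and each was placed in its genotype by its title. Trimmomatic, FastQC, MultiQC, Bowtie2, MACS2 2.1.2 and the build GRCh38 are named in the submitters' processing notes. The role and settings of these tools, duplicate removal and any shift for the Tn5 offset were not given in the sources used here. Peaks were called per library, since each has its own list. Each deposited peak has a score, a fold (a ratio over background) and −log10 values of p and q, all from the authors' peak caller, and the score is 10 times the −log10 q-value. Fold steps gave each library's background pileup. The mitochondrial peak, 1 per list, was left out.

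From these lists, peaks were assigned to windows by midpoint and lists were merged where peaks shared 1 bp. The windows were chosen on the mean peak number over all 6 lists, so number, density and spacing were described and not tested. The genotypes' window share of the list was tested, since that choice treats the genotype labels alike. The windows and all lists were chosen with earlier results of these data known. Genotypes were compared by exact permutation, two-sided, over all 20 ways to label the libraries. Parts of the genome were compared within library by sign permutation over 64 arrangements, with Benjamini-Hochberg adjustment over 6 comparisons and a threshold of 0.05. The regions named per window were the highest by mean fold among those in all 6 lists, the widest, and the strongest WT-only and KO-only regions. The genes named were those with a region inside or within 1 kb, by mean fold, up to 5 in a window, and the nearest protein-coding gene on each side, of which 1 is not reported here, and LOC105379428 was named because it has a promoter sequence. Regions of a mean fold of at least 50 and the promoter copies were chosen after their values were seen. Gene positions and promoter sequences came from RefSeq, GRCh38.p14. No genome was used, so the planned sequence content of the windows was not analysed here. Alternatives were a −log10 q of at least 5, a fold of at least 4, equal list length, other rules for overlap and presence, leaving out each library or window, a replicate block, and a rest of the genome limited to autosomes or to peaks away from gene ends. Each arm segment on its own, the WT-only share and the log2 difference between windows and rest were added after seeing the data. The code was tested on simulated data with planted backgrounds, regions and shifts. Python 3.11.15, numpy 2.4.6, pandas 2.3.3, scipy 1.17.1, Biopython 1.88 and matplotlib 3.10.9 were used.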

Additional observations from a re-analysis of the deposited data

How the results depend on the processing

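The larger window share in the knockout (0.71 to 1.60 percentage points) and the log2 difference between windows and rest (0.39 to 0.55) kept their direction in all alternatives run, leaving out each library included. With every list cut to the shortest, the genotype difference of the median fold was -1.80, the fold against the arm segments -0.56 and the width against them 76.3 bp. With that setting 21.5% of window regions were in all 6 lists and 0% were WT-only, beside 43.3% and 7.35% in the rest. With a fold of at least 4 these window shares were 28.6% and 1.11%, and with 50% of a region covered 9.23% and 5.35%. With the rest limited to peaks away from gene ends, the fold difference was -0.43 and the width difference 127 bp. With stronger peaks only (−log10 q, fold or list length) the width difference was 178 to 189 bp, and without the chromosome 5 window -11.4 bp. Against single segments the fold was 0.71 (chromosome 4) and the width 42.2 bp (chromosome 2). Leaving out each library gave -1.50 to -1.28 for fold against the rest, 0.98 to 1.07 for fold and 104 to 141 bp for width against the arms, all with an exact p of 0.0625, the smallest that 5 libraries allow. The width against the rest was -15.9 to 29.3 bp, reversed without the third knockout library (-15.9) and the first wild-type library (-4.9). Agreement was 26.0% to 28.8% and the WT-only share 4.09% to 8.93%, where fewer lists had to agree. For the other changes the cause was not tested. Same-numbered libraries did not deviate together (r of -0.02, 0.02 and -0.18), and with the replicate block the differences were 1.01 percentage points, 0.80 in fold and 0.46 in log2 (exact permutation p = 0.25, the smallest possible) and -90.2 bp in width (p = 0.5). The lowest fold of a called peak was lower in the wild-type lists, whose background pileup was higher. Whether depth accounts for this was not tested.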

Other observations

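Outside the windows, 3 further bins of 1 Mb held at least 60 peaks on average and no protein-coding gene. At 44 to 45 Mb of chromosome 8, peaks numbered 83, 117 and 106 in the knockout and 137, 118 and 122 in the wild type, and the knockout mean was 81.2% of the wild-type mean. At 40 to 41 Mb of chromosome 10 they numbered 83, 86 and 86 against 100, 102 and 104, or 83.3%. Both bins lay in the range of the windows, 75.2% to 97.0%, and their regions in all 6 lists had median log2 fold differences, knockout minus wild type, of 0.06 and -0.03. At 13 to 14 Mb of chromosome 2, inside the arm segment, the knockout held 130, 127 and 151 peaks and the wild type 226, 198 and 247, or 60.8%, and the median log2 fold difference was -0.14. Knockout counts lay below wild-type counts without overlap in all 3 bins. These bins were picked on their peak number, so the counts are given with no test.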
